A study of Mus musculus with 10 samples.

Results

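The data concern the second 2 h of RNA decay in 32Dcl3 cells kept in high IL-3: 2 arrays taken at 4 h against 2 arrays taken at 2 h, of 10 arrays in all. 32Dcl3 is a cloned mouse myeloblast line that needs interleukin-3 (IL-3) to grow, and it is the only line measured. In each of 2 experiments cells were freed of IL-3, transcription was stopped with actinomycin D at 10 µg/ml, and IL-3 was given back at 1 ng/ml (high) or 0.01 ng/ml (low). The RNA was hybridised to Affymetrix mouse 430A 2.0 arrays, with 2 arrays for each of 5 groups: high IL-3 at 4 h, high IL-3 at 2 h, low IL-3 at 4 h, low IL-3 at 2 h, and 0 h. The labels disagree on whether the 0 h cells were collected before or after actinomycin D, and the 2 experiments are the only replicates. A difference in level between them was taken out as a block. The p-values rest on how far changes differ between the 2 experiments, pooled over the 5 groups, and on a spread borrowed from other probe sets. Of 22690 probe sets, the 11856 with a mean intensity of at least 50 over the 10 arrays were tested. They name 6792 genes, and where a gene is counted once below, its probe set with the highest mean stands for it.

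When transcription is blocked, the amount of an mRNA can only be kept or lost, so the change between 2 time points follows its degradation. Most cytoplasmic mRNAs are degraded after their poly(A) tail is shortened. Sequence elements in the 3′ untranslated region, such as AU-rich elements (AREs), recruit proteins of the Zfp36 family that speed this up, and cytokine signals can slow it. A transcript with a constant decay rate loses the same share in each interval, so its log2 change is the same in both. The arrays were normalized together, so a level is relative to the other transcripts on the array.

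The array medians were 53.2 and 48.9 at 4 h, against 59.0 and 49.4 at 2 h (experiments 1 and 2). Pairs of values are given in that order throughout. Ratios of the 3′ to the 5′ control probe set were 0.905 and 0.875 at 4 h, against 0.869 and 0.844 at 2 h for Gapdh, and 1.32 and 1.14 at 4 h, against 1.23 and 1.14 at 2 h for Actb. Of 13 myeloblast markers, 10 reached a mean intensity of 50, among them Mpo, Prtn3, Ctsg and Myb, and Elane, Kit and Cd34 did not. The list summed to 15936 and 9059 at 4 h, against 18564 and 10319 at 2 h. Marker lists of lymphoid cells (0 of 5 measured) and fibroblasts (0 of 3) stayed below it. Macrophage (3 of 6), mast cell and basophil (3 of 7) and erythroid and megakaryocyte (3 of 5) lists each had members above it. The mast cell list summed to 1282 and 2399 at 4 h, against 1097 and 1929 at 2 h, and its part in the results was not tested.

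In high IL-3, 2212 probe sets were lower at 4 h than at 2 h and 226 were higher (limma with the experiment as a block, Benjamini-Hochberg adjusted p under 0.05). These are 18.7% and 1.91% of those tested. The lower ones carry 1602 gene names, and the higher ones 188. Of 768 genes with a lower call and several tested probe sets, 268 were lower on every one. Over the lower ones the 4 h signal was at a median of 60.0% of the 2 h signal of the same experiment, with quartiles of 49.1% and 69.0%, and 593 were at 50% or less. The median log2 change was -0.68 for the lower and 0.54 for the higher probe sets, on the scale of log2(intensity + 16), which understates the change of dim ones. Over all probe sets it was -0.052. In these bulk cultures a loss of some cells and a loss of RNA per cell cannot be told apart.

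All 2438 calls had the same sign in both experiments, as did 69.0% of all tested probe sets. The calls were made on these same 2 changes and nearly require that agreement, so it is no independent support. The change exceeded 0.3 log2 in both experiments for 1913 of the lower and 167 of the higher ones. The counts depended on single arrays: 1319 probe sets were lower without the 2 h array of experiment 1, 1349 without the 4 h array of experiment 1 and 1335 without the 4 h array of experiment 2. The higher ones numbered 119, 125 and 67 without these arrays and 143 without the 2 h array of experiment 2. How the arrays were scaled moved the higher calls most. With a common 75th percentile 1568 were lower and 1860 higher, with quantile normalization 1689 and 1171, and with Gapdh as the scale 1766 and 269. The 75th percentile scaling moved the median of all probe sets to 0.10. The medians of the main lists are therefore also given relative to that of all genes.

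**Figure D1:**
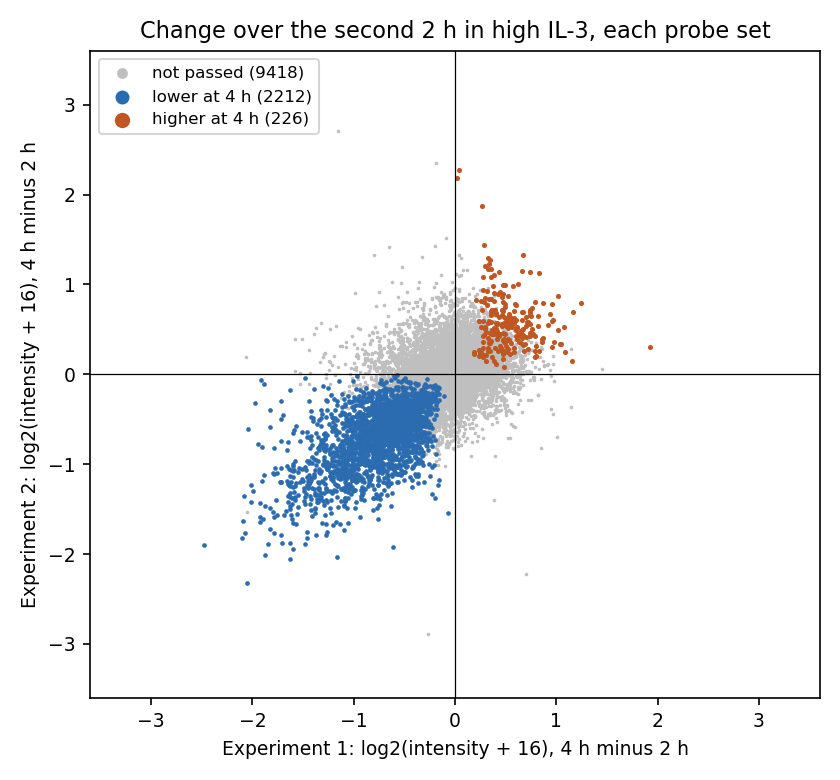
Change in log2(intensity + 16) from 2 h to 4 h in high IL-3 for each tested probe set, experiment 1 on the x axis and experiment 2 on the y axis. The 2212 lower probe sets lie at the lower left and the 226 higher ones at the upper right, and some of the higher ones change much in only 1 experiment.

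The 15 largest falls were of regulators and enzymes of several kinds. Arf6, a small GTPase of membrane traffic and actin remodelling, read 74.8 and 108 at 4 h, against 488 and 450.1 at 2 h (log2 -2.19 ± 0.28 SE, adjusted p = 6.04e-05). Both 4 h arrays lay far below both 2 h arrays, and the 2 further Arf6 probe sets fell as well (log2 -1.80 and -1.15). Zmynd19, which encodes a MYND zinc finger protein, had 14.6 and 9.46 at 4 h, against 112 and 112 at 2 h (log2 -2.19 ± 0.23 SE, adjusted p = 1.56e-05), so that its 4 h signal lay near the floor of the array. Lsm8, a subunit of the nuclear Lsm ring that binds U6 snRNA, read 227 and 154 at 4 h, against 875 and 669 at 2 h and kept 24.5% ± 2.1 of its 2 h signal (mean ± SD, n = 2 experiments; adjusted p = 7.36e-06).

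Sqle, the squalene epoxidase of cholesterol synthesis, gave 265 and 152 at 4 h, against 995 and 604 at 2 h (log2 -1.87 ± 0.13 SE, adjusted p = 6.68e-07). The share kept was nearly the same in both experiments, 25.9% ± 1.1. Slbp, which binds the stem-loop of histone mRNAs, read 337 and 135 at 4 h, against 1078 and 615 at 2 h (log2 -1.84 ± 0.14 SE, adjusted p = 1.43e-06). Samsn1, an adaptor protein of blood cells, had 312 and 245 at 4 h, against 1379 and 794 at 2 h (log2 -1.86 ± 0.15 SE, adjusted p = 2.84e-06). Sap30, a subunit of the Sin3 histone deacetylase complex, read 152 and 129 at 4 h, against 689.6 and 477 at 2 h and kept 24.5% ± 3.5. Among the other 8 of the 15 largest falls were Dbr1, the enzyme that opens intron lariats, and Med4, a Mediator subunit. Srfbp1, Zbtb22, Slc33a1, Cxxc5, Pitpnb and Ppp1r8 complete them, with log2 changes between -1.96 and -1.75 over the 8. All 15 kept the call under each alternative that tested them, apart from the fit without the experiment block, which kept none of them.

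The 15 largest rises were smaller and less even. With transcription blocked, a rise is not read here as new RNA. The paper attributes any 2 h or 4 h value above that at 0 h to measurement noise. The cause of these rises was not tested. Pgd, an enzyme of the pentose phosphate pathway, led them on 1 probe set with 1216 and 4141 at 4 h, against 1182 and 843 at 2 h (log2 1.16 ± 0.39 SE, adjusted p = 0.0457). Only the 4 h array of experiment 2 stood apart: without it the adjusted p was 0.99, and the other 3 Pgd probe sets changed by log2 0.01 to 0.06. B3gntl1, a putative glycosyltransferase, and Arhgef12, a guanine nucleotide exchange factor, likewise rested on 1 experiment. B3gntl1 read 157 and 111 at 4 h, against 29.7 and 86.4 at 2 h, and Arhgef12 read 66.2 and 111 at 4 h, against 65.1 and 12.1 at 2 h. B3gntl1 lost the call without either array of experiment 1 (0.32 without the 2 h and 0.27 without the 4 h array), and Arhgef12 without either of experiment 2 (0.47 and 0.40).

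Other rises were seen on both 4 h arrays. Osbpl2, an oxysterol-binding protein, had 954 and 613 at 0 h, 378 and 304 at 2 h and 864 and 503 at 4 h. Its signal fell and then rose (log2 0.93 ± 0.14 SE, adjusted p = 0.000296 for the second 2 h), and the difference between the intervals passed as well (adjusted p = 0.000271). Pnpla6, a lysophospholipase, read 237 and 202 at 4 h, against 109 and 104 at 2 h (log2 0.94 ± 0.18 SE, adjusted p = 0.00164), and Cux1, a homeodomain transcription factor, read 261 and 399 at 4 h, against 126 and 226 at 2 h (log2 0.87 ± 0.14 SE, adjusted p = 0.000472) on 1 of its 4 probe sets. The brightest of the other 3 changed by log2 0.19 (adjusted p = 0.387) and another by -0.12. Malat1, a long noncoding RNA retained in the nucleus, had 1359 and 1645 at 4 h, against 852 and 736 at 2 h (log2 0.90 ± 0.19 SE, adjusted p = 0.00342), and its other 3 probe sets passed too, with log2 changes of 0.60 to 0.73. Its call was lost without the 2 h array of experiment 2 (adjusted p = 0.062). The other 8, Mmp23, Fam160b1, Eif4ebp2, Scgn, Cd151, Lpp, Mia3 and Smarcad1, lay between log2 1.02 and 0.81. Cd151 and Lpp passed only on their dimmest probe set. Their brighter ones changed by log2 0.04 to 0.08 for Cd151 and -0.08 to -0.01 for Lpp. The other probe set of Mia3, a brighter one, changed by 0.09, and that of Fam160b1, a dimmer one, by 0.22 (adjusted p = 0.452). Of the 8, Eif4ebp2 (0.068), Cd151 (0.24) and Smarcad1 (0.29) lost the call without the 2 h array of experiment 2, and Mia3 (0.22) without the 4 h array of experiment 2. Smarcad1, a chromatin remodeller, was 1 of 4 genes with probe sets called both ways, at 0.81 and -0.65.

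**Figure D2:**
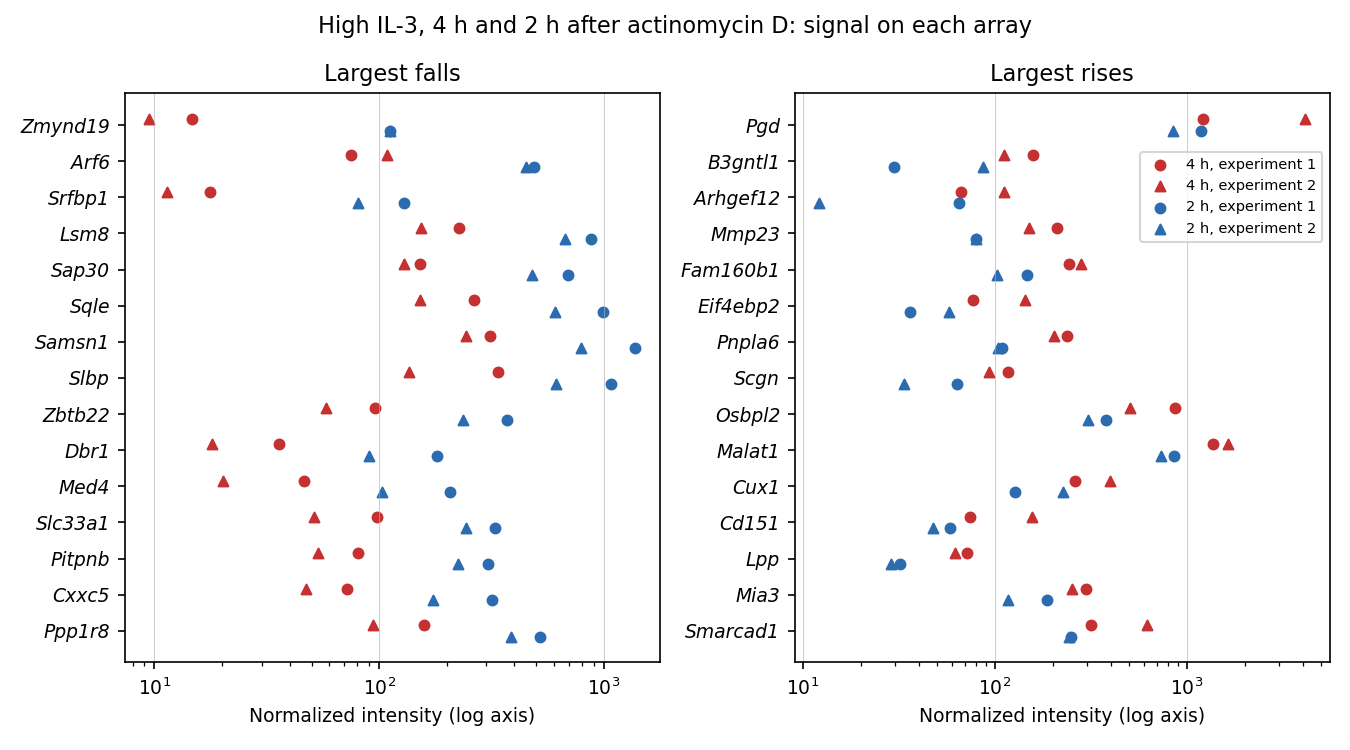
Normalized intensity on a log axis of the 15 largest falls (left) and the 15 largest rises (right) at 4 h (red) and 2 h (blue) in high IL-3, circles for experiment 1 and triangles for experiment 2. For each fall both 4 h arrays lie below both 2 h arrays, while for Pgd, B3gntl1 and Arhgef12 the distance is large in 1 experiment.

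Of the 39 lists, the one of mitosis had the highest share of falls. Of 57 tested G2/M and mitosis genes, 37 were lower at 4 h than at 2 h and 0 were higher, with a median log2 change of -0.54. Among all 6792 genes, 1400 were lower (20.6%) and 115 higher (1.69%), with a median of -0.066. Relative to all genes the median of the mitotic list was -0.48, and -0.48 to -0.42 under the 3 other scalings. In the first 2 h the same number, 37, had been lower at 2 h than at 0 h, as had 27.6% of all genes. Leaving out in turn the 4 h array of experiment 1, the 4 h array of experiment 2 and the 2 h array of experiment 1, the arrays that lowered the total most, gave 27, 28 and 28 lower mitotic genes. For other lists these 3 counts are given in the same order where they moved by over 1.5 times.

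Ccna2, cyclin A2, which drives S phase and mitotic entry, read 546 and 374 at 4 h, against 1691 and 1210 at 2 h (log2 -1.63 ± 0.11 SE, adjusted p = 3.1e-07). Cks2, a small subunit of cyclin-dependent kinases, read 856 and 725 at 4 h, against 2669 and 2174 at 2 h (log2 -1.59 ± 0.09 SE, adjusted p = 7.39e-08). Both kept about the same share in each experiment, 31.6% ± 0.97 for Ccna2 and 32.7% ± 0.9 for Cks2, and both fell more in the second than in the first 2 h (difference of log2 changes -0.98 and -0.90, adjusted p = 0.00776 and 0.00301). The difference passed on both probe sets of Cks2 and on 1 of 2 of Ccna2. Ccna2 kept that second call except without the 2 h array of experiment 1 (adjusted p = 0.089) and without the block. Aurka, the mitotic kinase Aurora A, was lower too (106 and 91.8 at 4 h, against 417 and 286 at 2 h; log2 -1.66 ± 0.18 SE, adjusted p = 2.32e-05). It had fallen at a like rate in the first 2 h, when its log2 change was -1.86. Cdc20, an activator of the anaphase-promoting complex, read 2040 and 1617 at 4 h, against 3348 and 2911 at 2 h and kept 58.2% ± 3.8. Cenpe and Racgap1 ran against the list with log2 changes of 0.40 and 0.08, neither past the threshold.

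Among 55 G1/S and DNA replication genes, 19 were lower and 0 higher (9, 13 and 11 lower without the 3 arrays in turn), with a median of -0.20. The 19 are 34.5%, beside 20.6% of all genes. Cdt1, a licensing factor of replication origins, read 184 and 82.3 at 4 h, against 583 and 244 at 2 h (log2 -1.49 ± 0.18 SE, adjusted p = 4.43e-05). Gmnn, geminin, which holds Cdt1 back, read 621 and 409 at 4 h, against 1301 and 898 at 2 h (log2 -1.08 ± 0.11 SE, adjusted p = 1.91e-05). The abundant helicase subunit Mcm7 lost less, with 72.5% ± 3.7 kept (2422 and 1963 at 4 h, against 3466 and 2615 at 2 h). Ccnd2, cyclin D2, did not pass on its brightest probe set (2424 and 2023 at 4 h, against 2276 and 1949 at 2 h; log2 0.07 ± 0.07 SE, adjusted p = 0.543). Of its 7 tested probe sets 1 passed, as higher (log2 0.43, adjusted p = 0.0291).

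Ribosome production divided by the kind of gene. Of 64 ribosome biogenesis factors, 35 were lower (54.7%, beside 20.6% of all genes) and 0 higher (median log2 -0.40). Of 73 mitochondrial ribosomal protein genes, 35 were lower (47.9%) and 0 higher (-0.33). The mitochondrial ribosomal count was 23, 25 and 24 without the 3 arrays in turn, and the biogenesis count was 23 under the 75th percentile. Relative to all genes these medians were -0.33 and -0.26. None of 43 cytoplasmic ribosomal protein genes was called by limma in either direction, with a median of -0.002 and log2 changes from -0.53 to 0.34. At an unadjusted p under 0.05, 2 of these 43 changed. Under the 75th percentile and under quantile normalization 3 of the 43 were called higher, and 0 lower. Relative to all genes their median was 0.064, but -0.023 under quantile normalization.

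Brix1, an assembly factor of the large ribosomal subunit, read 391 and 241 at 4 h, against 1258 and 586 at 2 h (log2 -1.44 ± 0.17 SE, adjusted p = 3.32e-05). Utp18, a part of the small subunit processome, read 239.5 and 304 at 4 h, against 759 and 691 at 2 h (log2 -1.37 ± 0.14 SE, adjusted p = 1.23e-05). In these factors the 4 h arrays lay below both 2 h arrays. Mrpl35, a protein of the large mitochondrial ribosomal subunit, had 335 and 391 at 4 h, against 1048 and 845 at 2 h (log2 -1.34 ± 0.13 SE, adjusted p = 1.01e-05). Its log2 change in the first 2 h was smaller, -0.36, and the difference between the intervals passed (adjusted p = 0.0282) but did not without the 2 h array of experiment 1 (0.38). Mrpl44 read 84.5 and 58.1 at 4 h, against 253 and 177 at 2 h and had fallen as fast in the first 2 h (log2 -1.67). The cytoplasmic Rps20 read 8673 and 9244 at 4 h, against 9402 and 9484 at 2 h, and Rpl41 7422 and 7423 at 4 h, against 7990 and 7729 at 2 h. These bright transcripts kept 94.9% ± 3.7 and 94.5% ± 2.2.

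Of 81 respiratory chain and ATP synthase genes, 4 were lower (4.9%, beside 20.6% of all genes) and 1 higher (1.2%, beside 1.69%), with a median of 0.025. The lower ones numbered 2, 2 and 3 without the 3 arrays in turn. Ndufs7, a subunit of complex I, was among the 4 (1416 and 1190 at 4 h, against 1805 and 1774 at 2 h; log2 -0.46 ± 0.10 SE, adjusted p = 0.00439), and lost the call without the 2 h array of experiment 2 (0.068). With the 75th percentile as the scale, 1 of the 81 was lower and 24 were higher, and with quantile normalization 2 and 6. Relative to all genes its median was 0.044 to 0.097 above under each scaling. In the list of mitochondrial protein import 37.5% were lower. Of 24 genes of mitochondrial protein import, 9 were lower and 0 higher (7, 5 and 6 lower without the 3 arrays in turn), among them Timm10 (128 and 56.1 at 4 h, against 311 and 161 at 2 h; log2 -1.24 ± 0.16 SE, adjusted p = 5.75e-05) and Timm23 (1853 and 1875 at 4 h, against 3209 and 2793 at 2 h; log2 -0.68 ± 0.09 SE, adjusted p = 5.52e-05).

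In 4 lists of transcription and RNA processing, 29.0% to 41.9% of the genes were lower, beside 20.6% of all genes. Of 69 RNA polymerase II and Mediator genes 20 were lower (12, 11 and 10 without the 4 h array of experiment 1, the 4 h array of experiment 2 and the 2 h array of experiment 1). Of 61 splicing factors 24 were lower (12, 12 and 13 without these arrays, and 11 under the 75th percentile). Of 43 nuclear pore and transport genes 18 were lower, and of 40 mRNA decay factors 12 (7, 11 and 7). Only the nuclear pore list held a higher gene, the import receptor Tnpo3 at log2 0.34, which lost the call without any 1 of the 4 high IL-3 arrays (0.070 to 0.24). Kpna2, importin alpha 2, read 1386 and 1270 at 4 h, against 3183 and 2982 at 2 h (log2 -1.21 ± 0.07 SE, adjusted p = 1.33e-07). It kept 43.1% ± 0.68, and was 1 of 4 probe sets called without the block, beside 1 each of Ccna2 and Cks2 and 1 with no single gene name. Nup50, a mobile nucleoporin, had 55.0 and 79.9 at 4 h, against 285 and 229 at 2 h (log2 -1.72 ± 0.20 SE, adjusted p = 2.95e-05). Gtf2b, the general factor TFIIB, read 137 and 99.8 at 4 h, against 558 and 247 at 2 h (log2 -1.55 ± 0.21 SE, adjusted p = 0.000104). Cdk9, the kinase of the elongation factor P-TEFb, read 518 and 309.8 at 4 h, against 1115 and 788 at 2 h and kept 42.9% ± 5.1.

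Exosc7, a ring subunit of the RNA exosome, read 363 and 424 at 4 h, against 965 and 794 at 2 h (log2 -1.13 ± 0.13 SE, adjusted p = 3.74e-05). Cnot2, a subunit of the CCR4-NOT deadenylase complex, read 108 and 59.9 at 4 h, against 225 and 128 at 2 h (log2 -0.95 ± 0.16 SE, adjusted p = 0.000569), while Xrn1, the cytoplasmic 5′ to 3′ exonuclease, did not pass (log2 0.41 ± 0.18 SE, adjusted p = 0.139). Among 17 ARE-binding proteins, 2 were lower, Zfp36l2 and Pcbp1 (11.8%, beside 20.6% of all genes), and 1 higher, Auh (5.9%, beside 1.69%). Without the 2 h array of experiment 2, 7 were lower. Pcbp1, a poly(C)-binding protein, read 1975 and 2041 at 4 h, against 3525 and 3290 at 2 h (log2 -0.76 ± 0.08 SE, adjusted p = 1.07e-05). Auh, an enoyl-CoA hydratase that also binds AREs, was dim and stood at 158% ± 30.2 of its 2 h signal (log2 0.55 ± 0.18 SE, adjusted p = 0.0394). It lost the call without either 4 h array (0.18 and 0.14) and without the 2 h array of experiment 2 (0.30), and its other probe set changed by log2 0.02.

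In 4 lists of protein synthesis and turnover, 23.9% to 41.7% of the genes were lower, again beside 20.6% of all genes, and single arrays moved each count by over 1.5 times. Of 42 translation initiation factors 17 were lower and 1, Eif4ebp2, higher. Without the 4 h array of experiment 1, the 4 h array of experiment 2 and the 2 h array of experiment 1, in turn, 12, 7 and 11 were lower. With the 75th percentile as the scale, 8 were lower and 7 higher. Eif4ebp2 lost the call on its brightest probe set without each of these arrays (0.16, 0.17 and 0.34), and 2 of its 4 probe sets passed. Of 24 ubiquitin-conjugating enzymes 10 were lower (4, 7 and 4 without these arrays), of 46 proteasome subunits 11 (7, 8 and 9), and of 21 aminoacyl-tRNA synthetases 6 (3, 5 and 3), and 0 were higher. Eif1a, which binds the small ribosomal subunit during start site scanning, read 269.6 and 172 at 4 h, against 684 and 452 at 2 h (log2 -1.31 ± 0.16 SE, adjusted p = 5.24e-05). Ube2g1 read 311 and 214 at 4 h, against 980.4 and 584 at 2 h (log2 -1.49 ± 0.12 SE, adjusted p = 3.2e-06). Psmd7, a subunit of the proteasome lid, had 1117 and 1381 at 0 h, 1394 and 1176 at 2 h and 709 and 716 at 4 h. Its log2 change was -0.83 in the second and 0.04 in the first 2 h (adjusted p of the difference = 0.0378, and 0.50 without the 2 h array of experiment 1).

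Further lists held both called and uncalled genes. Chaperones of the heat shock and DnaJ families had 13 of 43 lower (30.2%, beside 20.6% of all genes) and 1 higher, with 7, 5 and 7 lower without the same 3 arrays in turn. Under the 75th percentile 7 were lower and 8 higher. CCT chaperonin subunits had 3 of 8 lower, and ubiquitin-specific proteases 7 of 30 (23.3%; 5, 5 and 4). Rab GTPases had 11 of 38 lower (28.9%; 4, 6 and 4) and 1 higher, Rab6a, whose call was lost without either array of experiment 1 (0.39 and 0.42) and whose other probe set changed by log2 -0.18. The 3 CCT genes, Cct4, Cct6a and Tcp1, changed by log2 -0.37, -0.47 and -0.19, and Tcp1 lost the call under 14 of 21 alternatives. Dnaja2, a cytosolic Hsp40 co-chaperone, read 264 and 279.8 at 4 h, against 697 and 696 at 2 h (log2 -1.31 ± 0.13 SE, adjusted p = 1.18e-05) and had fallen less in the first 2 h (adjusted p of the difference = 0.0157, and 0.26 without the 2 h array of experiment 1). Hspb1, the small heat shock protein Hsp27, was the higher member of its list (204 and 145 at 4 h, against 129.7 and 77.4 at 2 h; log2 0.69 ± 0.16 SE, adjusted p = 0.00673), and lost the call without the 4 h array of experiment 2 (0.092). Of 26 cholesterol synthesis genes 7 were lower (26.9%; 3, 4 and 3), with Hmgcs1 after Sqle (617 and 382 at 4 h, against 1267 and 790.3 at 2 h; log2 -1.02 ± 0.12 SE, adjusted p = 2.8e-05). Of 20 glycolysis and control genes 4 were lower. Hk2, hexokinase 2, read 224 and 158 at 4 h, against 668 and 374 at 2 h (log2 -1.34 ± 0.15 SE, adjusted p = 2.36e-05), and Slc2a1, the glucose transporter Glut1, read 304 and 443 at 4 h, against 824 and 862 at 2 h (log2 -1.17 ± 0.18 SE, adjusted p = 0.000339). Gapdh, read on 3 control probe sets, kept 94.6% to 98.3%.

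**Figure D3:**
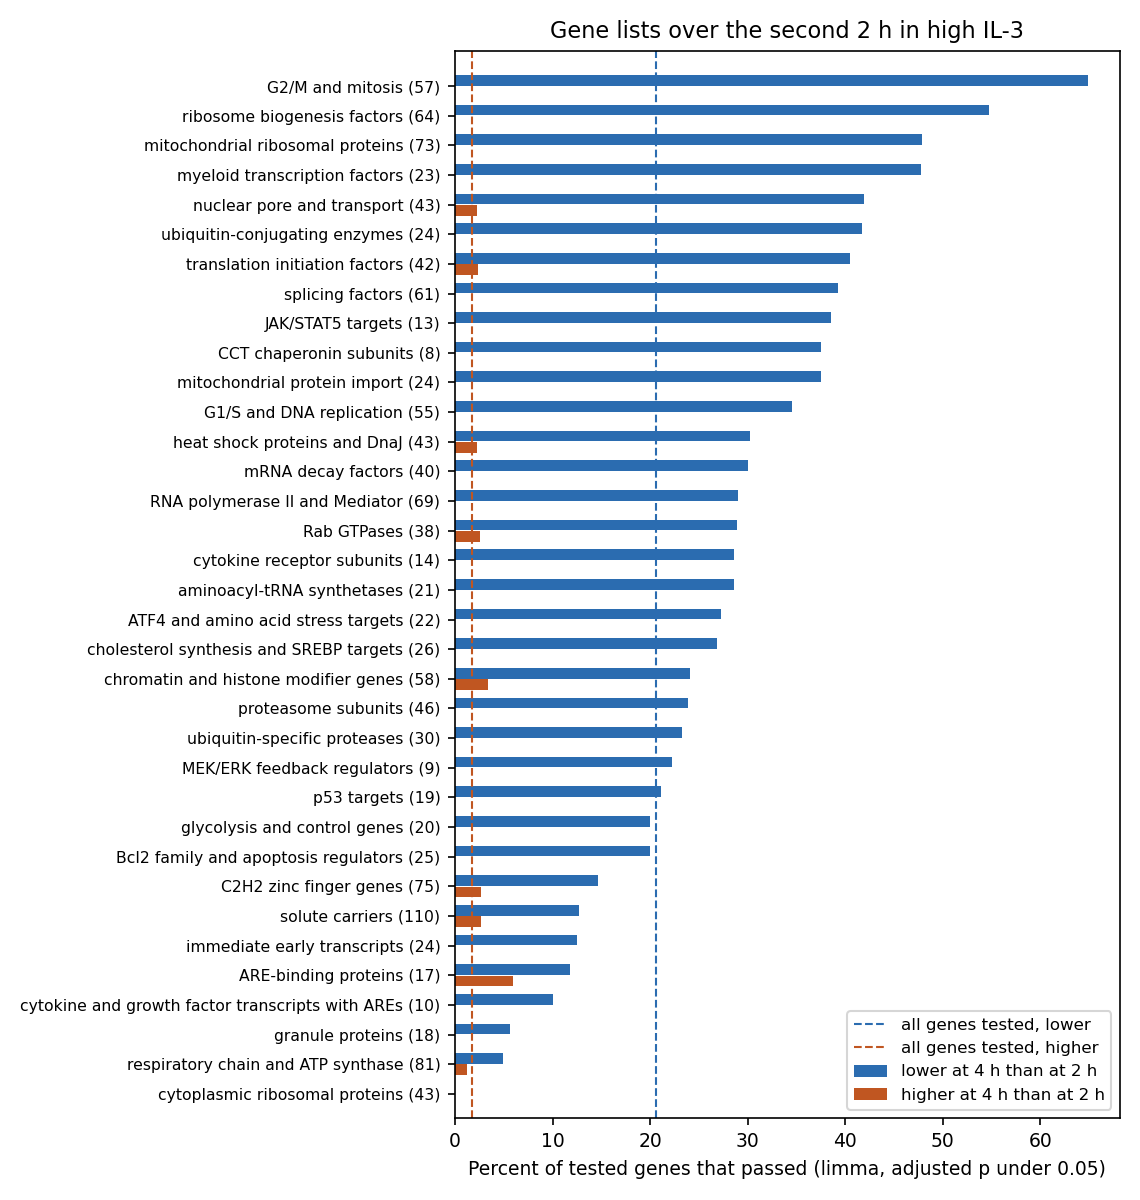
Percent of the tested genes of each list that were lower (blue) or higher (orange) at 4 h than at 2 h in high IL-3, with the number tested in parentheses and dashed lines at the 20.6% and 1.69% of all genes tested. The G2/M list is at the top with 37 of 57 lower, and the cytoplasmic ribosomal proteins are at the bottom with 0 of 43.

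Myeloid transcription factors and granule proteins, the regulators and the products of the lineage, differed in the share that fell. Of 23 transcription factors 11 were lower (47.8%, beside 20.6% of all genes) and 0 higher, with a median log2 change of -0.61. Of 18 granule protein genes 1 was lower (5.6%) and 0 higher, with a median of 0.035. Relative to all genes these medians were -0.54 and 0.10. Cebpb, a basic leucine zipper factor of myeloid cells, read 118 and 57.9 at 4 h, against 352 and 233 at 2 h (log2 -1.61 ± 0.17 SE, adjusted p = 1.56e-05). Elf1 and Fli1, factors of the Ets family, and Lyl1, a basic helix-loop-helix factor, followed. Fli1 read 326 and 220.3 at 4 h, against 949 and 612 at 2 h (log2 -1.45 ± 0.14 SE, adjusted p = 1.02e-05), and Lyl1 473 and 474 at 4 h, against 1163 and 1163 at 2 h (log2 -1.27 ± 0.12 SE, adjusted p = 1.02e-05). Gata2, also listed with mast cells and basophils, kept 42.1% ± 4.9 (359.8 and 296 at 4 h, against 932 and 650.0 at 2 h; adjusted p = 9.13e-05).

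Among granule genes, S100a8, a subunit of calprotectin, read 1593 and 626 at 4 h, against 1257 and 564 at 2 h (log2 0.24 ± 0.14 SE, adjusted p = 0.259) and Lyz2, lysozyme, read 535 and 249 at 4 h, against 389 and 210.5 at 2 h (log2 0.34 ± 0.15 SE, adjusted p = 0.145). Neither passed. The 1 called gene, Serpinb1a, an inhibitor of neutrophil proteases, kept 85.9% ± 1.5, and lost the call under 13 of 21 alternatives. Of 14 cytokine receptor subunits 4 were lower (28.6%, beside 20.6% of all genes): Il4ra, Tnfrsf1a, Il17ra and Csf2rb2. The count was 1 without the 4 h array and 1 without the 2 h array of experiment 1, and Il17ra lost the call under 12 of 20 alternatives. Il4ra, the IL-4 receptor alpha chain, had 29.2 and 37.0 at 4 h, against 101 and 168 at 2 h (log2 -1.58 ± 0.28 SE, adjusted p = 0.000804). Csf2rb2, a beta chain of the mouse IL-3 receptor, read 465 and 630.1 at 4 h, against 698 and 868 at 2 h (log2 -0.51 ± 0.12 SE, adjusted p = 0.00729), and lost the call without either array of experiment 1 (0.058 for the 2 h and 0.077 for the 4 h array).

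Immediate early transcripts, short-lived regulators induced by growth factors, mostly fell in the first 2 h. Of 24 immediate early transcripts 3 were lower (12.5%, beside 20.6% of all genes) and 0 higher in the second 2 h. In the first 2 h 19 were lower, beside 27.6% of all genes, and 12 fell less in the second than in the first. Among all genes, 221 fell less in the second 2 h (3.25%) and 25 fell more (0.368%). The 3 that fell were Rgs2, a regulator of G protein signalling, Id2, an inhibitor of basic helix-loop-helix factors, and Jund, a subunit of AP-1. Jund, the brightest of them, read 1492 and 1027 at 4 h, against 2348 and 2407 at 2 h (log2 -0.93 ± 0.19 SE, adjusted p = 0.00237). Id2 had 1222 and 766 at 0 h, 165 and 83.9 at 2 h and 74.7 and 37.7 at 4 h (log2 -0.95 ± 0.18 SE, adjusted p = 0.00116 for the second 2 h).

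Of 9 MEK/ERK feedback regulators, 2 were lower in the second 2 h (4 without the 4 h array of experiment 1), 7 in the first, and 3 fell less in the second. The 2 of 9 are 22.2%, near the 20.6% of all genes, and in the first 2 h 27.6% of all genes were lower. Among all genes 3.25% fell less in the second 2 h. Spred2, an inhibitor of Ras signalling, went on falling (83.6 and 56.6 at 4 h, against 288 and 206 at 2 h; log2 -1.61 ± 0.16 SE, adjusted p = 1.07e-05). Dusp6, the phosphatase of ERK, was at 871 and 884 at 0 h, 83.9 and 67.5 at 2 h and 69.7 and 37.7 at 4 h and did not pass (log2 -0.43 ± 0.19 SE, adjusted p = 0.13 for the second 2 h). Of 13 JAK/STAT5 targets 5 were lower in the second 2 h (38.5%) and 12 in the first. The count was 0 without the 4 h array of experiment 2, 2 without the 2 h array of experiment 1 and 3 under the 75th percentile or quantile normalization. Mcl1, an anti-apoptotic Bcl2 relative, read 3133 and 3604 at 0 h, 890.4 and 631 at 2 h and 569.7 and 366 at 4 h. Its log2 change was -0.69 in the second and -2.14 in the first 2 h (adjusted p of the difference = 0.00953). The second fall lost its call without the 2 h array of experiment 1 (0.072) or the 4 h array of experiment 2 (0.12), and the difference, which passed on 2 of 6 probe sets, without the 2 h array of experiment 2 (0.066).

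In the list of 25 apoptosis regulators, 5 were lower, a share near the 20.6% of all genes, and 0 higher (4, 3 and 3 lower without the 4 h array of experiment 1, the 4 h array of experiment 2 and the 2 h array of experiment 1). Bid, a pro-apoptotic member with only the BH3 domain, read 192 and 281 at 4 h, against 689 and 619 at 2 h (log2 -1.43 ± 0.16 SE, adjusted p = 2.27e-05). Apaf1, the scaffold of the apoptosome, read 221 and 142 at 4 h, against 628 and 298 at 2 h (log2 -1.21 ± 0.15 SE, adjusted p = 4.43e-05). Fadd, an adaptor of death receptors, and the anti-apoptotic Bcl2l1 and Mcl1 were the other 3. Of 19 p53 targets 4 were lower (21.1%), among them Cdkn1a, and 1 and 2 were without the 4 h array of experiment 2 and the 2 h array of experiment 1. Of 22 ATF4 and amino acid stress targets 6 were lower (27.3%). Trib3, a pseudokinase of the stress response, read 158 and 194 at 4 h, against 589 and 592 at 2 h (log2 -1.67 ± 0.19 SE, adjusted p = 3.47e-05). Of 75 C2H2 zinc finger genes 11 were lower (14.7%) and 2 higher (2.7%, beside 1.69% of all genes). In the first 2 h 52 had been lower, beside 27.6% of all genes. In the second 17 of the 75 fell less than in the first, as did 3.25% of all genes.

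Of 10 cytokine transcripts with AREs 1 was lower (10.0%, beside 20.6% of all genes), and 5 had been lower in the first 2 h (beside 27.6%). It was Ltb, lymphotoxin beta (985 and 1015 at 4 h, against 1718 and 1655 at 2 h; log2 -0.74 ± 0.10 SE, adjusted p = 9.52e-05). Vegfa, an angiogenic growth factor, read 631 and 409 at 0 h, 177 and 93.8 at 2 h and 143 and 54.7 at 4 h and did not pass in the second 2 h (log2 -0.46 ± 0.17 SE, adjusted p = 0.0626).

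The 2 intervals were compared directly by the difference of their log2 changes within the high IL-3 series. The 2 h arrays enter both changes with opposite sign. In all, 309 probe sets (2.61%) fell less in the second than in the first 2 h and 60 (0.506%) fell more. The 309 had a median log2 change of -0.15 in the second and -1.84 in the first interval. Of them, 60 were below a mean intensity of 50 at 2 h, as were 328 of all 11856. Of the 60 that fell more, 18 were called higher at 2 h than at 0 h. For those 18 a rise in the first 2 h is part of the difference. In the second 2 h 52 of the 60 were called lower. The 60 that fell more had medians of -0.88 in the second and 0.19 in the first. Their number moved with single arrays: 468 without the 2 h array of experiment 2, 109 without the 0 h array of experiment 2, 36 without that of experiment 1, 11 without the 2 h array of experiment 1, and 27 without the 4 h array of experiment 1. Leaving out a 4 h array in low IL-3 gave 28 (experiment 1) and 29 (experiment 2). Those that fell less numbered 149 without the 2 h array of experiment 1.

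Nfkbia, the inhibitor of NF-kB, showed the largest slowing. It read 549 and 694 at 0 h, 26.5 and 20.5 at 2 h and 32.3 and 31.8 at 4 h, a difference of 4.29 ± 0.34 SE (adjusted p = 7.57e-06). The signal was near the array floor from 2 h on. Mycn, a transcription factor of the Myc family, levelled well above it, with 2208 and 1610 at 0 h, 114 and 154 at 2 h and 163 and 137 at 4 h (difference 3.83, adjusted p = 7.57e-06). Gas5, the host transcript of small nucleolar RNAs, fell and levelled on 2 of its 4 probe sets (differences 4.04 and 2.71), and its 2 bright ones did not (0.20 and 0.21). Myc, described among the level transcripts, had the second largest difference, 4.19 (adjusted p = 7.57e-06). Dusp2, Socs3, Lcmt2 and Zfp574 were the others of the 8 largest, with differences of 3.17 to 3.62 and intensities of at most 42.7 at 4 h except for Socs3, which read 66.0 in experiment 1.

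Denr, a factor that recycles ribosomal subunits and supports reinitiation, fell later on the brighter of its 2 probe sets. It read 914 and 1042 at 0 h, 1206 and 1168 at 2 h and 467 and 471 at 4 h, and its difference was -1.59 ± 0.20 SE (adjusted p = 0.000387). Both experiments gave the same course, and of the alternatives tried only the fit without the block lost the call. The dimmer probe set did not pass (log2 -0.34, adjusted p = 0.246; difference -0.50, adjusted p = 0.498). Rsrp1, an arginine and serine rich protein, read 655 and 577 at 0 h, 1454 and 893 at 2 h and 711 and 614 at 4 h (difference -1.65, adjusted p = 0.00135). The difference passed on 1 of its 3 probe sets (-0.59 on the brightest, adjusted p = 0.104, and 1.47 on the dim one, adjusted p = 0.0549). Over the second 2 h in low IL-3 its log2 change was -0.04. Tbrg1, a growth regulator, read 640.2 and 853 at 0 h, 863 and 943 at 2 h and 422 and 453 at 4 h (adjusted p = 0.00334, and 0.062 without the 2 h array of experiment 1). Srsf1, a splicing factor, passed on 1 of 6 probe sets, and Mapk14, the kinase p38 alpha, on 1 of 3, and without the 2 h array of experiment 1 their adjusted p was 0.68 and 0.58. Golph3 and Brms1 had 0.48 and 0.58 without that array, and each passed on 1 probe set. The other Golph3 probe sets, all brighter, had differences of -0.547 to 0.036 (adjusted p = 0.499 to 0.951). The other Brms1 probe set had -0.079 (adjusted p = 0.95).

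Late transcripts were taken as those lower at 4 h than at 2 h whose 95% interval for the first 2 h lay within 0.5 log2 of no change. There were 473 such probe sets of 362 genes. They kept a median of 72.4% of the 2 h signal at 4 h, after 94.6% of the 0 h signal at 2 h. Of the 473, 307 were also lower over the second 2 h in low IL-3, and 0 were higher. Of all 2212 lower ones 75.3% were. The number follows the bound, with 119 at 0.3 and 891 at 0.7, and was 275 under Gapdh scaling. The difference between the intervals itself passed for 21 of them.

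Bola1, a mitochondrial protein of iron-sulfur cluster handling, read 333 and 357 at 0 h, 309.7 and 362 at 2 h and 116 and 127 at 4 h. It was level until 2 h, with a log2 change of -0.04, and then kept 36.1% ± 1.6 after it (log2 -1.36 ± 0.14 SE, adjusted p = 1.56e-05). Shmt1, the cytosolic serine hydroxymethyltransferase of folate metabolism, read 192 and 219.8 at 0 h, 208 and 183 at 2 h and 70.3 and 63.5 at 4 h (log2 -1.35 ± 0.17 SE, adjusted p = 6.24e-05). Metap1, a methionine aminopeptidase, read 288 and 458 at 0 h, 343 and 323 at 2 h and 101 and 146 at 4 h, with a first change of opposite sign in the 2 experiments. Dr1, a repressor that binds TBP, read 245 and 346 at 0 h, 272 and 265 at 2 h and 82.0 and 116 at 4 h. The difference between the intervals passed for these 4 but not without the 2 h array of experiment 1 (0.063 for Bola1, 0.34 for Shmt1, 0.56 for Metap1 and 0.53 for Dr1). It passed on 1 of 4 probe sets of Shmt1, 1 of 2 of Dr1 and 1 of 3 of Metap1, whose other 2 had differences of -0.029 and -0.020 (adjusted p = 0.959 and 0.984). Acbd6, Tuba8, Cd2bp2 and Pigyl completed the 8 largest, with 40.8%, 44.6%, 42.2% and 41.5% kept.

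Level transcripts were those lower at 2 h than at 0 h by a log2 of at least 1 whose 95% interval for the second 2 h lay within 0.5 log2 of no change. They were 71 probe sets of 63 genes, and 12 of them had a mean below 50 at 2 h. At 4 h they stood at a median of 100% of the 2 h signal (88.0% to 116%), and at 2 h at 33.6% of the 0 h signal. Over the second 2 h in low IL-3, 2 of the 71 were lower and 0 higher, beside 2244 and 262 of all 11856. In low IL-3 the interval of 31 of the 71 lay within the same bound, as did that of 5191 of all tested (43.8%). With a bound of 0.3 there was 1 level probe set in high IL-3, and with 0.7 there were 230. Of the 71, 51 passed the test of the difference between the intervals.

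Myc, the proto-oncogene whose mRNA is a classic unstable one, read 1463 and 1064 at 0 h, 76.5 and 30.2 at 2 h and 54.3 and 38.4 at 4 h (log2 -0.08 ± 0.19 SE, adjusted p = 0.81 for the second 2 h). From 2 h to 4 h it fell further in experiment 1 and rose in experiment 2. Its signal was then close to the filter on low intensities. Id1, an inhibitor of basic helix-loop-helix factors, levelled higher, with 849 and 1439 at 0 h, 117 and 191 at 2 h and 107 and 174 at 4 h (log2 -0.12 ± 0.14 SE, adjusted p = 0.621). Irf1, an interferon response factor, read 584 and 304 at 0 h, 66.8 and 45.7 at 2 h and 72.8 and 47.3 at 4 h. Stil, a centriole duplication factor, read 769 and 351 at 0 h, 128 and 48.0 at 2 h and 110.1 and 60.6 at 4 h. Id1 and Irf1 kept about their 2 h level, 91.5% ± 0.34 and 106% ± 3.8. The mean of Stil, 106% ± 28.5, joined a fall in experiment 1 and a rise in experiment 2. Ccdc71l, Socs3, Trmt10c and Tgif1 were the other 4 of the 8 named, at 90.1% to 102%.

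**Figure D4:**
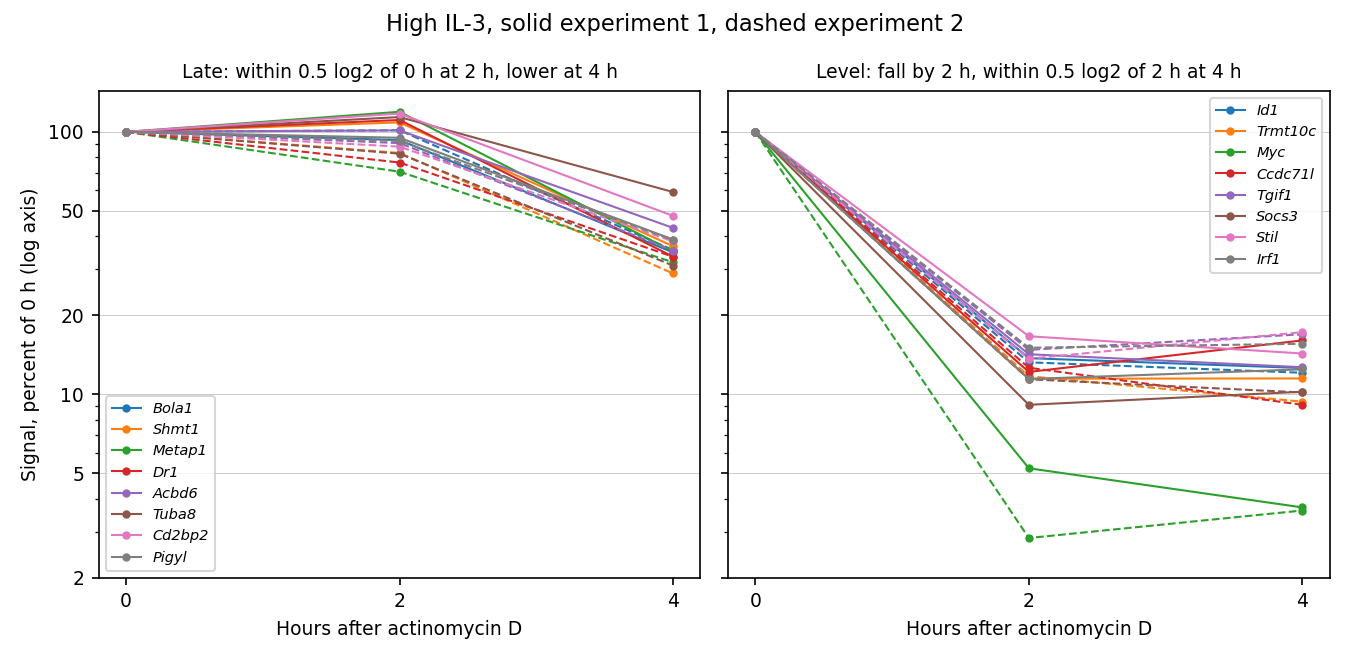
Signal in high IL-3 as percent of the 0 h signal in that experiment (log axis) at 0, 2 and 4 h for 8 late (left) and 8 level genes (right), solid lines for experiment 1 and dashed lines for experiment 2. Late genes keep most of their signal until 2 h and then fall. Level genes fall until 2 h and then stay near that level in the mean of the 2 experiments.

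Of 14 genes that the study followed on blots or named in its text or gene lists, several were lower at 4 h than at 2 h under the full dose. Part of them were picked from these arrays, so their direction is no independent evidence. Zfp36l2, an ARE-binding protein that promotes decay, read 382 and 323 at 4 h, against 1588 and 783 at 2 h (log2 -1.62 ± 0.18 SE, adjusted p = 2.29e-05). Cited2, a CBP/p300-binding coregulator, read 230.1 and 148 at 4 h, against 745 and 372 at 2 h (log2 -1.43 ± 0.18 SE, adjusted p = 6.5e-05), and its other probe set fell too (log2 -1.01), without a call when the 2 h array of experiment 1 (0.097) or the 4 h array of experiment 2 (0.12) was left out. Myb, a transcription factor of immature blood cells, was lower on 3 probe sets, and the brightest read 875 and 617 at 4 h, against 1836 and 1094 at 2 h (log2 -0.93 ± 0.11 SE, adjusted p = 3.5e-05). Pik3cd, which encodes the PI 3-kinase catalytic chain p110 delta, was lower on 3 as well, the brightest with 389 and 574 at 4 h, against 813 and 886 at 2 h (log2 -0.82 ± 0.14 SE, adjusted p = 0.000561). The other 2 lost the call without the 2 h array of experiment 1 (0.08 and 0.11).

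Pim1, a serine/threonine kinase downstream of STAT5, read 693 and 425 at 4 h, against 1127 and 814 at 2 h (log2 -0.80 ± 0.16 SE, adjusted p = 0.00192), and reached 0.050 without the 4 h array of experiment 2. Cdkn1a, the cyclin-dependent kinase inhibitor p21, read 1451 and 885 at 4 h, against 2164 and 1427 at 2 h (log2 -0.63 ± 0.14 SE, adjusted p = 0.00388), and lost the call without the 4 h array of experiment 2 (0.062). Its dimmer probe set did not pass (log2 -0.61 ± 0.22 SE, adjusted p = 0.0673). Gch1, the entry enzyme of tetrahydrobiopterin synthesis, passed on 1 of 2 probe sets (188 and 303 at 4 h, against 275 and 442 at 2 h; log2 -0.52 ± 0.15 SE, adjusted p = 0.0234), and lost the call under each of the 3 scalings (0.052 to 0.067).

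Others did not pass. Il6, the cytokine interleukin-6, read 787 and 994 at 0 h, 400.0 and 493 at 2 h and 350.2 and 530.0 at 4 h (log2 -0.04 ± 0.14 SE, adjusted p = 0.87; 95% interval -0.34 to 0.26 for the second 2 h). It was lower at 2 h than at 0 h (log2 -0.97), though the difference between the intervals did not pass (adjusted p = 0.0514). Hbegf, an EGF family growth factor, read 886 and 764 at 4 h, against 839.7 and 674 at 2 h (log2 0.13 ± 0.15 SE, adjusted p = 0.615; 95% interval -0.20 to 0.45). Il3ra, the IL-3 receptor alpha chain, Bcl2l11, the pro-apoptotic Bim, Zfp36l1 and Csf2rb did not pass, with log2 changes of -0.06, 0.17, -0.20 and -0.36. Their 95% intervals reached -0.37, 0.53, -0.53 and -0.70, so that changes up to that size cannot be told from none with 2 arrays per group.

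The same interval in low IL-3 was read on 4 other arrays of the same 2 experiments. There 1517 genes were lower (22.3%), and 2244 probe sets. Of the 2212 probe sets lower in high IL-3, 1665 were also lower in low IL-3 (75.3% of those in high and 74.2% of those in low IL-3). Of the 226 higher ones, 18 were also higher in low IL-3 (7.96%, and 6.87% of the 262 higher there), and 1 was lower. Tested directly, no probe set changed differently over the second 2 h in high than in low IL-3: 0 were lower and 0 higher at an adjusted p under 0.05 by limma (0.0% each), with 326 and 358 at an unadjusted p under 0.05. The smallest adjusted p was 0.0508. Without the 2 h high IL-3 array of experiment 2, 134 were lower and 13 higher, and without that of experiment 1, 4 and 9.

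The 4 h signal of Zfp36l2 was 32.7% ± 12.2 of its 2 h signal under the high dose, and 61.1% ± 1.8 under the low dose, a difference in log2 change of -0.94 (95% interval -1.47 to -0.41; adjusted p = 0.761). In both experiments the share was smaller in high IL-3. The paper lists Zfp36l2 among the transcripts stabilized by IL-3, ranked by the area between decay curves that start at 0 h. A share of the 2 h signal leaves out the first 2 h, so it does not test that ranking. The 4 h signal of Hbegf was 109.5% ± 5.5 of its 2 h signal under the high and 79.0% ± 15.4 under the low dose (difference 0.46, interval -0.001 to 0.92; adjusted p = 0.868). Pik3cd, Myb and Pim1 had differences of -0.10, 0.06 and 0.05. Their intervals ran from -0.52 to 0.31 for Pik3cd, from -0.27 to 0.39 for Myb and from -0.43 to 0.53 for Pim1. For Cdkn1a the difference was 0.23 (interval -0.18 to 0.64).

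**Figure D5:**
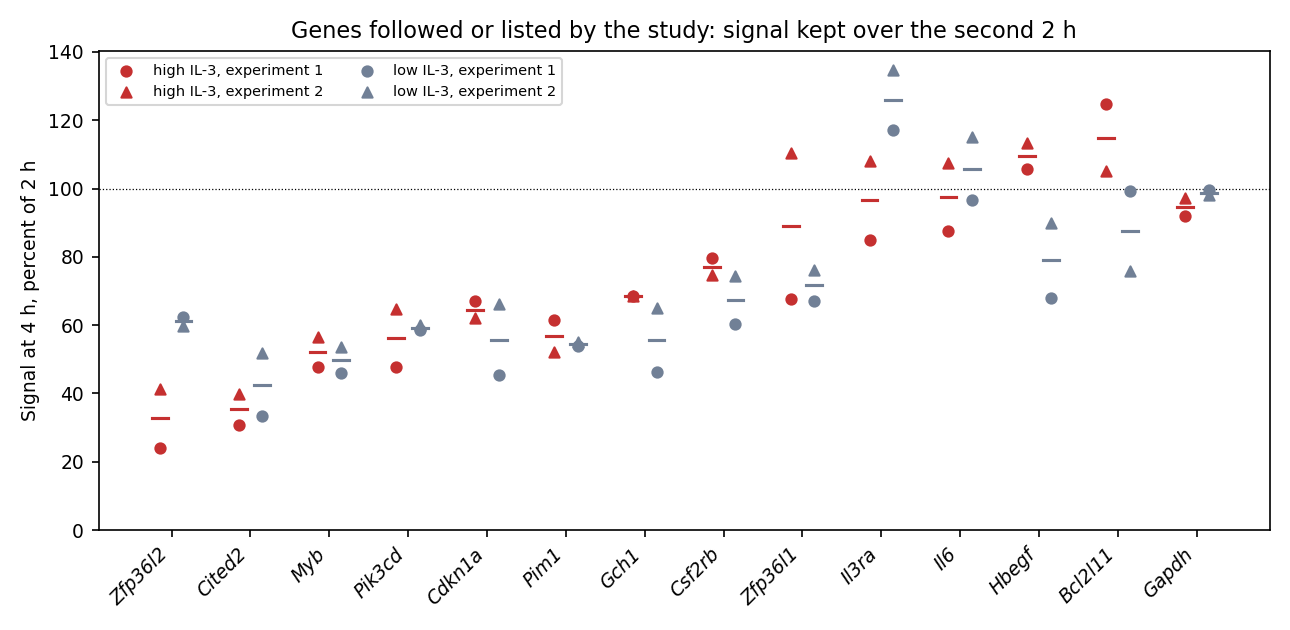
Signal at 4 h as percent of the 2 h signal of the same experiment in high (red) and low IL-3 (grey) for 14 genes, by the brightest probe set of each, circles for experiment 1, triangles for experiment 2 and bars for the mean. Zfp36l2 lies lower in high IL-3 in both experiments, and Hbegf and Bcl2l11 lie higher, with no difference past the threshold.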

How the data were processed

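Arrays from 2 experiments on 32Dcl3 cells were analysed, 10 in all. The deposited intensities are linear values that the authors normalized together with dChip at default settings; no source used here gives its version. Of 22690 probe sets, 20393 name 1 gene in the platform annotation, 691 several and 1606 none. Only single names are printed, updated through the gene ID for 20364. Probe sets that may bind related transcripts were kept.

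The change was tested with limma 3.58.1 (R 4.3.3) on log2(intensity + 16) in 1 model of the 5 groups, blocked by experiment and with a variance trend, and Benjamini-Hochberg adjustment over 11856 probe sets, those averaging 50 or more in intensity (threshold 0.05). Intervals are 95%. Per the methods the same experiment number marks 1 culture that was divided, and deviations of same-numbered arrays from their group means correlated at 0.762 to 0.887 over the 10 pairs of groups. The fit left 4 residual degrees of freedom, so precision is limited by the number of arrays. The spread borrowed from other probe sets added a median of 11.4 prior degrees of freedom. Tables and plots were made with matplotlib 3.10.9, scipy 1.17.1, pandas 2.3.3 and numpy 2.4.6 under Python 3.11.15.

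The text names up to 15 largest falls and 15 largest rises with the same sign in both experiments. In each of 39 gene lists it draws on up to 4 members with the smallest p in the commoner direction and up to 2 in the other. It adds up to 8 genes each that fell more, fell less, were late or were level, and 14 genes that the study followed or listed. Genes named only to complete a count of 5 or fewer were chosen after their values were seen. The comparison, the members and the lists were chosen with earlier results of these data known.

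On simulated data with 11856 probe sets, the test of 4 h over 2 h recovered 94.5% of changes of log2 -1.6, 59.0% of -0.8, 10.0% of -0.4, 14.5% of 0.4 and 62.0% of 0.8 (200 each), and 3.42% of 497 calls were false. Each simulated run changed far fewer probe sets than the 2438 called in the data, so these rates need not carry over. Alternatives covered the block, the pseudocount, the filter, the scaling, the variance trend, the arrays in the fit and each array left out. Affymetrix control probe sets, 58 of those tested, stayed in.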

Additional observations from a re-analysis of the deposited data

How the results depend on the processing

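Without the experiment as a block (the fit with no replicate block), 4 probe sets were lower and 0 higher at 4 h than at 2 h, and 0 fell more and 1 fell less in the second than in the first 2 h. Of the named changes tested, all 186 kept their direction under each alternative that tested them. They were picked largely by size or p on these same arrays, so a reversal was unlikely and this is no independent support. Leaving out 1 array gave 1319 to 2307 lower and 67 to 292 higher, 11 to 468 that fell more and 149 to 334 that fell less, and 0 to 134 lower and 0 to 13 higher under the high than under the low dose. The higher calls numbered 116 with no filter, 143 with a filter at 200, 91 with only the arrays of the contrast, 1860 with a common 75th percentile and 1171 after quantile normalization. Those that fell more numbered 20 with no filter, 29 with a filter at 200, 19 with no variance trend and 14 with only the arrays of the contrast. Those that fell less numbered 144 with no filter, 92 with a filter at 200, 196 with a common 75th percentile, 168 after quantile normalization and 205 with only the arrays of the contrast. Changes that were higher under the high than under the low dose numbered 1 with a filter at 200, 2 with Gapdh scaling, 1 with only the arrays of the contrast, and 1 without the array control probe sets, an alternative chosen after seeing the data. Late transcripts numbered 119 and 891 with bounds of 0.3 and 0.7 and 275 with Gapdh scaling, and level ones 1 and 230 with these bounds. The cause of these shifts was not tested.

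With 2 arrays per group the median SE was 0.15 log2 and the median 95% interval, unadjusted, reached 0.32 to either side, so changes smaller than that were mostly not detectable. At the adjusted threshold larger changes were missed too. The simulation recovered 10.0% of changes of log2 -0.4, 14.5% of 0.4, 59.0% of -0.8 and 62.0% of 0.8. Intensities near the array floor bound a fall only from below.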

Other observations

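Some further lists mixed falls and rises over the second 2 h in high IL-3. Of 58 chromatin and histone modifier genes, 14 were lower and 2 higher (24.1% and 3.4%, beside 20.6% and 1.69% of all genes). The lower ones numbered 4 without the 4 h array of experiment 2, 4 without the 2 h array and 8 without the 4 h array of experiment 1. With the 75th percentile as the scale, 9 were lower and 8 higher. The 2 were Kmt2a, a histone H3 lysine methyltransferase (269.7 and 172 at 4 h, against 206 and 98.0 at 2 h; log2 0.54 ± 0.16 SE, adjusted p = 0.0262), and Smarce1, a subunit of BAF remodelling complexes (1362 and 876 at 4 h, against 1076 and 685 at 2 h; log2 0.34 ± 0.11 SE, adjusted p = 0.045). Smarce1 was called both ways, since its other probe set was lower (log2 -0.54, adjusted p = 0.0457), and the dimmer Kmt2a probe set did not pass (log2 0.14, adjusted p = 0.664). Of 110 solute carriers, 14 were lower (12.7%) and 3 higher (2.7%), Slc46a3, Slc22a17 and Slc39a11. Under the 75th percentile 10 were lower and 16 higher. Slc46a3, a lysosomal transporter, read 89.1 and 83.1 at 4 h, against 53.3 and 42.1 at 2 h (log2 0.68 ± 0.19 SE, adjusted p = 0.0174). Of 75 C2H2 zinc finger genes the 2 higher ones were Zfp35 (log2 0.70 ± 0.16 SE, adjusted p = 0.00543) and, on 1 of 2 probe sets, Zfp704 (log2 0.62 ± 0.19 SE, adjusted p = 0.0258).

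Of 6 tested genes of a wider mast cell and basophil list, Gata2 was lower and Fcer1a, the alpha chain of the high-affinity IgE receptor, was higher (66.9 and 274 at 4 h, against 33.6 and 181 at 2 h; log2 0.65 ± 0.21 SE, adjusted p = 0.0387). None of 4 macrophage genes and none of 5 erythroid and megakaryocyte genes was called by limma, and 1 of these 9 had an unadjusted p under 0.05.

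The rises given here with their values lost the call when 1 high IL-3 array was left out. Without the 4 h array of experiment 2 the adjusted p was 0.26 for Kmt2a and 0.41 for Zfp704, without the 4 h array of experiment 1 it was 0.22 for Smarce1, 0.082 for Zfp35 and 0.32 for Fcer1a, and without the 2 h array of experiment 2 it was 0.13 for Slc46a3. Slc22a17 and Slc39a11 are named only to complete the count.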
